A study of Mus musculus with 6 samples.

Results

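The transcripts described here are those of 7 complement regulators, Cd59a, Cd59b, Cd55, Cd46, Cr1l, Clu and Serping1, taken by gene symbol from the 18058 genes of the deposited table. All 7 were measured in every library and all 7 passed the filter on low values, a mean of at least 0.1 CPM, that 16762 genes passed. CPM is the read count of a gene scaled to the size of its library. Cd59a was selected on its measured difference between the genotypes in these same libraries, and the other 6 were chosen by their function around it with results of these data known. The values of Cd59a between the genotypes are therefore a description without a test.

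Whole brainstems of 1-month-old mice were snap-frozen. Total RNA of 3 wild type (WT, C57BL/6J) and 3 Rag1-/- brainstem samples was sequenced, 1 sample per library. Whether each sample came from 1 mouse is not stated in the sources used here. The comparison addresses which brainstem transcripts differ in a strain whose brain permits the growth of implanted human low-grade glioma cells. The Rag1-/- line of the study is B6.129S7-Rag1tm1Mom/J, a germline allele on a C57BL/6 background, made in 129S7 cells. Such mice lack mature T and B cells in every tissue, while innate immune cells are retained.

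Complement is a cascade of plasma proteins that tags surfaces, recruits phagocytes and ends in a pore, the membrane attack complex. Host cells carry regulators that stop the cascade at fixed steps. Cd55 and the rodent protein Crry, the product of Cr1l, act on the C3 and C5 convertases, Cd46 is a cofactor for cleavage of C3b and C4b, and Cd59 is a glycosylphosphatidylinositol (GPI)-anchored protein that blocks assembly of the pore. Among secreted regulators, Serping1 encodes the C1 inhibitor and Clu encodes clusterin, a chaperone that binds the forming pore. Mice carry a pair of Cd59 genes, Cd59a, which is broadly expressed, and Cd59b, which is best known from the testis, and Cd46 in mice is likewise best known from the testis.

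Cd59a and Cd59b lie side by side on chromosome 2 and resemble each other in sequence. Cd59a spans chr2:104095801-104115410 and Cd59b spans chr2:104071010-104084957 (mm10, both on the plus strand), with 10843 bases between them. Their coding sequences, 369 bases in Cd59a and 387 in Cd59b, could be aligned over 354 positions, of which 301 (85.0%) were identical. The stretch of 150 coding bases printed here covers bases 99 to 248 of Cd59a and 96 to 245 of Cd59b, counted from the A of the start codon. It opens the longest part aligned without a gap. The pair differs more in it than over all aligned positions, so it does not stand for the rest. Its 31 differing bases are in capitals.
Cd59a coding: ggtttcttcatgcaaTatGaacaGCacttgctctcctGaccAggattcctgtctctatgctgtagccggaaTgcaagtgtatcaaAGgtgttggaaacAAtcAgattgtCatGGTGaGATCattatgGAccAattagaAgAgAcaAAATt
Cd59b coding: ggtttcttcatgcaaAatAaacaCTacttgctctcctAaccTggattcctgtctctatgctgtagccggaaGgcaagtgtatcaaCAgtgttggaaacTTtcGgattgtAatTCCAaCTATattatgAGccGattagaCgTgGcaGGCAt
Of the sequences of 50 bases in the annotated transcripts (GENCODE M21), 70 were shared, which is 3.87% of those of Cd59a and 5.32% of those of Cd59b. At 25 bases these shares were 10.3% and 14.1%, and at 75 bases they were 1.66% and 2.28%. The read length is not given, so none of these shares can be taken as that of the reads. Reads from shared stretches cannot be assigned to 1 gene with certainty, so the level of the rarer gene, Cd59b, is uncertain.

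The promoters of the pair are shown next because the genes differ in level while lying next to each other. Each window runs from 250 bases before to 50 bases after the RefSeq start (GRCm38.p6), plus strand, chr2:104095551-104095850 for Cd59a and chr2:104070816-104071115 for Cd59b. Capitals mark a match to a searched motif.
Cd59a promoter: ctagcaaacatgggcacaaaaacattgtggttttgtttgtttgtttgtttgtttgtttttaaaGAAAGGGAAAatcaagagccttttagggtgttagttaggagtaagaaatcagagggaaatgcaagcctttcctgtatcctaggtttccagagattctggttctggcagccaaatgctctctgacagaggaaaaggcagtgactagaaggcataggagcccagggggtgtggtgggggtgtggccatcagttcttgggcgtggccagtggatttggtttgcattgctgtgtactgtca
Cd59b promoter: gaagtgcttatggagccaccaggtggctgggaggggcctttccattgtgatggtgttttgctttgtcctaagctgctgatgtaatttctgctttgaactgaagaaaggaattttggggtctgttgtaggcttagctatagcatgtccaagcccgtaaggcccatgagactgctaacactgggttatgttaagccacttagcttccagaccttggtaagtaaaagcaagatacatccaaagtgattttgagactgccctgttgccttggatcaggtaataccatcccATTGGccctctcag
The motifs were searched on both strands among 32851 promoter windows of the same length. The TATA box (TATAAA) is held by 13.6% of them, the GC box (GGGCGG) by 35.7% and the CCAAT box (letters CCAAT) by 37.4%. The core of the interferon-stimulated response element, the letters GAAA at each end with 2 bases of any kind between them, is held by 3.44%. No match in the 2 windows shown overlaps another. The Cd59a window holds 1 match to this core and none to the others. The Cd59b window holds 1 match to the CCAAT box. Both windows hold 1 CpG, against a median of 7 over all windows, while those of Cd55, Cd46 and Cr1l hold 12, 13 and 6. The Cd46 window also holds a match to the interferon motif, and a match is a description of letters, not of a bound site.

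The libraries were estimated to hold 34800000 to 46400000 reads in WT and 31600000 to 35100000 reads in Rag1-/-, from the steps between low values, so that 3 reads equal 0.0646 to 0.0863 CPM and 0.0854 to 0.0951 CPM. The 3 libraries labelled Rag1-/- held more Rag1 RNA (2.60, 4.02 and 2.90 CPM) than WT (0.236, 0.388 and 0.115 CPM). Each value counts the whole gene, so it does not show whether a working product is made. The Rag1 level thus does not tell the genotype by itself, and each direction given here rests on the labels. WT replicates 1 and 2 were high in Xist, with 172 and 177 CPM, while WT replicate 3 and all Rag1-/- libraries had 0.462 to 2.93 CPM, so Xist level and genotype are confounded in part. Over all tested genes, 8 passed the test (adjusted limma-trend p under 0.05, Benjamini-Hochberg), 6 lower and 2 higher in Rag1-/-, the median log2 fold change was -0.051 with 67.7% of genes below 0, and 1938 (11.6%) had an unadjusted p under 0.05. Marker lists of 8 genes each for neurons, astrocytes, oligodendrocytes and microglia were measured in full in every library.

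Cd59a was the regulator that separated the genotypes most. Replicates 1, 2 and 3 of WT held 27.7, 25.9 and 26.6 CPM, and those of Rag1-/- held 7.80, 6.95 and 7.42 CPM. The groups lie far apart, with the lowest WT library above the highest Rag1-/- library by more than the whole range of either group. The means were 26.7 ± 0.94 CPM (SD, n = 3) and 7.39 ± 0.429 CPM (SD, n = 3), so Rag1-/- brainstems held 27.7% of the WT level, a 3.62-fold difference. On the scale of log2(CPM + 0.1), which slightly understates a fold of a low transcript, the log2 fold change was -1.84 (SE 0.07, 95% interval -2.0 to -1.69). These levels rest on an estimated 923 to 1201 reads in each WT library and on 219 to 270 in each Rag1-/- library. WT replicate 3, the WT library with low Xist, was at 26.6 CPM, which is 3.59 times the Rag1-/- mean. In bulk tissue, fewer cells that express a gene and less RNA per cell cannot be told apart.

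**Figure D1:**
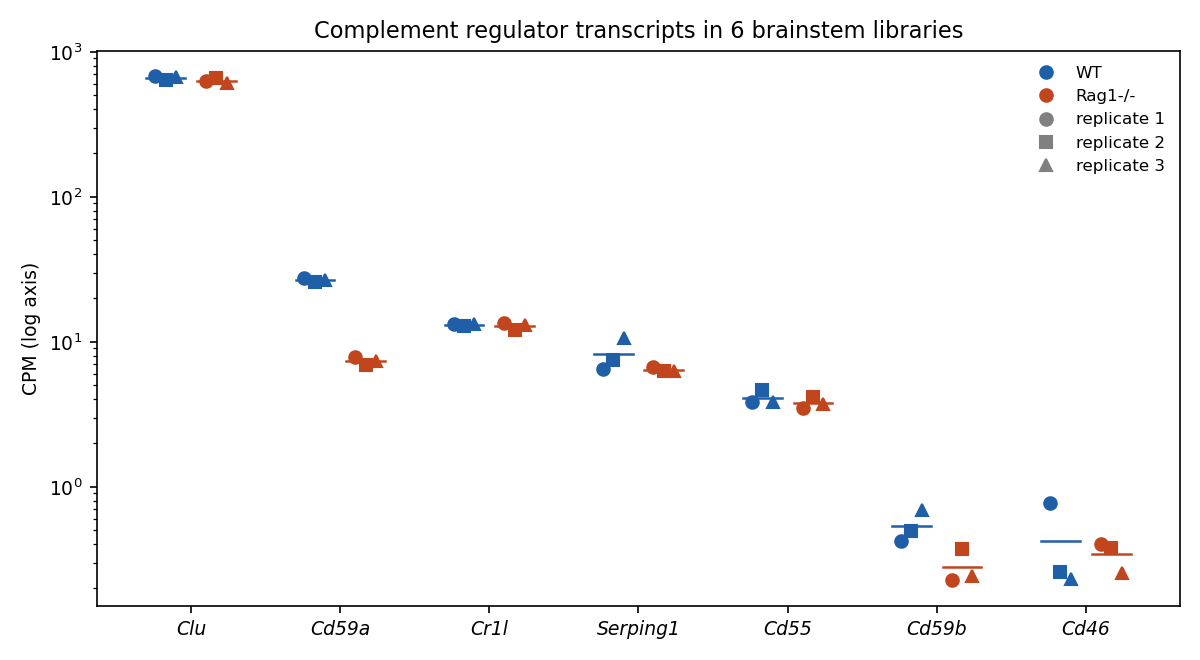
CPM of the 7 complement regulators (log axis) in each of 3 WT and 3 Rag1-/- brainstem libraries, with the replicate number as the symbol and the group mean as a line. Cd59a lies near 26.7 CPM in WT and near 7.39 CPM in Rag1-/-, Cd59b also has no overlap between the groups, and the points of the other 5 genes overlap.

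Among all 7 regulators, Cd59a was the 1 with an adjusted p under 0.05 in the fit over all genes, where 0.0477% of tested genes were called, and nothing is read from this since its contrast chose it. In Cd59a and Cd59b, every Rag1-/- library was below every WT library, as for 14.4% of tested genes. For 3.98% of tested genes every Rag1-/- library was above, and none of the 7 was among them.

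Cd59b, the neighbouring copy, was close to the limit of these libraries. Its levels were 0.426, 0.495 and 0.692 CPM in WT and 0.226, 0.372 and 0.243 CPM in Rag1-/-. Every Rag1-/- library was below every WT library, but the gap from 0.372 to 0.426 CPM is smaller than the range within either group. The means were 0.538 ± 0.138 and 0.281 ± 0.0796 CPM (SD, n = 3), and the log2 fold change of -0.74 (SE 0.26, 95% interval -1.34 to -0.15) did not pass the test (adjusted p = 0.373 by limma-trend). A two-sided exact test over permuted libraries returned p = 0.1, which is the lowest possible with 3 against 3.

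The read estimates bear on how Cd59b was counted. Its levels equal about 18, 23 and 24 reads in WT, whole numbers within 0.1 read. In Rag1-/- they equal 7.84, 11.7 and 8.53 reads, which are not whole. Summed with Cd59a, the 3 Rag1-/- libraries come to 277.9, 230.9 and 268.9 reads, each within 0.1 of a whole number, and the WT libraries to 1192.9, 1223.9 and 947.4 reads. The sums of WT replicates 1 and 2 are also within 0.1 of a whole number. Cr1l came to 457.7 reads in WT replicate 3 and to 463.8 in Rag1-/- replicate 1, so at such counts the estimated unit is not exact to 0.1 read in every library of either genotype. How reads shared by the pair were divided is not given in the sources used here. Cd59a made up 97.5% to 98.5% of the summed CPM of the pair in WT and 94.9% to 97.2% in Rag1-/-, so in every library the pair was nearly all Cd59a.

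The regulators that act on C3 were next. Cr1l, the gene of Crry, was at 13.3, 12.9 and 13.2 CPM in WT and at 13.4, 12 and 13.1 CPM in Rag1-/-. The groups overlap, and the log2 fold change was -0.03 (SE 0.07, 95% interval -0.19 to 0.12, adjusted p = 0.869 by limma-trend). Cd55, the decay-accelerating factor, was at 3.85, 4.67 and 3.85 CPM in WT and at 3.47, 4.15 and 3.73 CPM in Rag1-/-. These values overlap too, with a log2 fold change of -0.12 (SE 0.12, 95% interval -0.40 to 0.16, adjusted p = 0.725 by limma-trend). Under the alternatives the Cd55 value ran from -0.19 without Rag1-/- replicate 2 to -0.03 without WT replicate 2 or with the Xist term, and it was -0.06 without Rag1-/- replicate 1.

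Cd46, the cofactor protein gene, was the rarest of the 7 per length of transcript. It was at 0.779, 0.259 and 0.230 CPM in WT and at 0.404, 0.380 and 0.256 CPM in Rag1-/-, or an estimated 8 to 33 reads per library. WT replicate 1 stands above the other 5 libraries, which overlap. The log2 fold change of -0.09 (SE 0.39, 95% interval -0.97 to 0.79, adjusted p = 0.946 by limma-trend) has a wide interval, and its sign turned under several settings. The spread of the WT libraries (coefficient of variation 73.1%) is larger than the counting error of 17.4% to 35.4% in each. Cd46 (chr1:195041238-195092248) and Cr1l (chr1:195098711-195131570) lie 6462 bases apart on the minus strand of chromosome 1, and Cd55 (chr1:130439026-130462744, minus strand) lies on the same chromosome.

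The secreted regulators were Clu and Serping1. Clu (chr14:65968483-65981548, plus strand), which astrocytes are known to express strongly, was at 681, 636 and 667 CPM in WT and at 629, 661 and 609 CPM in Rag1-/-. The groups overlap, with a log2 fold change of -0.06 (SE 0.05, 95% interval -0.18 to 0.05, adjusted p = 0.627 by limma-trend). The 8 astrocyte markers had a median log2 fold change of 0.05, with none past the test. Their summed level was 4256 to 4579 CPM in WT and 4620 to 4773 CPM in Rag1-/-. In 1 of the 8, Slc1a2, every Rag1-/- library was above every WT library (3.98% of all tested genes). Slc1a2, the most abundant of them, was at 1635, 1697 and 1523 CPM in WT and 1725, 1804 and 1771 CPM in Rag1-/-. It lies between Rag1 and Cd59a on chromosome 2. Serping1 (chr2:84765360-84775429, minus strand) was at 6.44, 7.43 and 10.7 CPM in WT and at 6.67, 6.24 and 6.24 CPM in Rag1-/-. WT replicate 3 stands above the other 5 libraries, and the rest overlap.

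For Serping1 the log2 fold change was -0.32 (SE 0.17, 95% interval -0.70 to 0.05, adjusted p = 0.487 by limma-trend), and it was -0.12 without WT replicate 3. With a term for the 2 libraries of high Xist, it was -0.73 with an adjusted p of 0.0486 by limma-trend. That fit compares WT replicate 3 alone with Rag1-/- and assumes that it varies like the other libraries. The same library had the highest summed level of 8 meningeal fibroblast markers, which was 111, 118 and 162 CPM in WT and 92.0 to 120 CPM in Rag1-/-. None of these 8 passed the test, all 8 had a log2 fold change below 0, as 67.7% of all tested genes did, with a median of -0.31 (-0.18 without Rag1-/- replicate 1 and -0.60 with the Xist term), and their part in the Serping1 values was not tested. For Cd55, Cd46, Cr1l, Clu and Serping1 the same exact permutation test returned p of 0.4, 0.9, 0.8, 0.2 and 0.2.

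**Figure D2:**
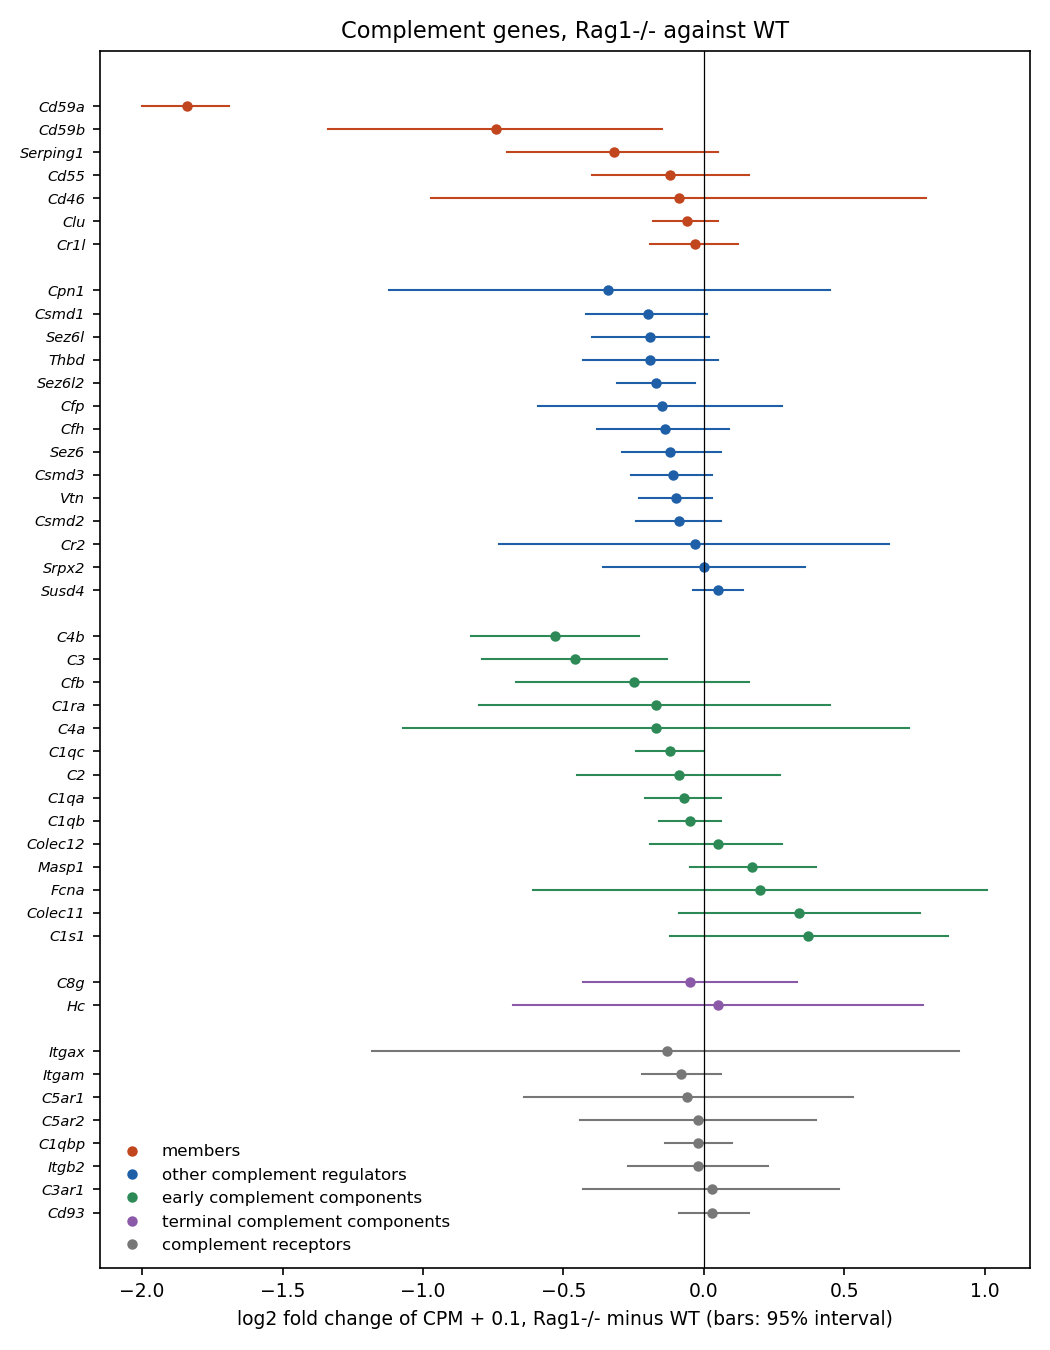
Log2 fold change of CPM + 0.1, Rag1-/- minus WT, with 95% intervals from limma-trend, for the 7 regulators ("members") and for the tested genes of 4 further complement lists. Cd59a at -1.84 lies below every other complement gene shown, and C4b at -0.53 is the lowest among the early components.

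Levels of different genes were compared per kilobase of their longest RefSeq-matched transcript. In WT the order was Clu at 365 ± 12.5, Cd59a at 14.8 ± 0.52, Cr1l at 7.94 ± 0.12, Serping1 at 4.63 ± 1.25, Cd55 at 1.63 ± 0.188, Cd59b at 0.675 ± 0.173 and Cd46 at 0.0672 ± 0.0491 CPM per kilobase (SD, n = 3). In Rag1-/- the order was Clu at 350 ± 14.5, Cr1l at 7.76 ± 0.452, Cd59a at 4.09 ± 0.237, Serping1 at 3.61 ± 0.141, Cd55 at 1.49 ± 0.136, Cd59b at 0.352 ± 0.1 and Cd46 at 0.0552 ± 0.0126 CPM per kilobase. Cd59a was thus above Cr1l in each WT library and below it in each Rag1-/- library. The ranges of neighbours in the order do not overlap in either group, and the closest are Cd59a, from 3.85 to 4.32, and Serping1, from 3.53 to 3.77, in Rag1-/-.

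Within a library the ratio of Cd59a to Cr1l does not depend on how the library was scaled. Per kilobase it was 1.91, 1.84 and 1.84 in WT and 0.532, 0.53 and 0.519 in Rag1-/-. These values are tight within each genotype and lie on either side of equal levels. The ratio of Cr1l to Cd55, by contrast, was 4.23 to 5.29 in WT and 4.43 to 5.93 in Rag1-/-, which overlap.

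Summed over the 5 membrane regulators, Cd59a, Cd59b, Cd55, Cd46 and Cr1l, the level per kilobase was 25.6, 24.6 and 25.1 CPM in WT and 14.2, 13.3 and 13.8 CPM in Rag1-/-. Cd59a made up 60.1%, 58.1% and 58.6% of that sum in WT and 30.5%, 29.0% and 29.7% in Rag1-/-. Without Cd59a the sum was 10.2 to 10.4 CPM per kilobase in WT and 9.42 to 9.83 in Rag1-/-. None of these 4 genes passed the test, Cr1l, Cd55 and Cd46 overlap between the groups, and Cr1l per kilobase was highest of all libraries in Rag1-/- replicate 1, at 8.12 CPM.

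**Figure D3:**
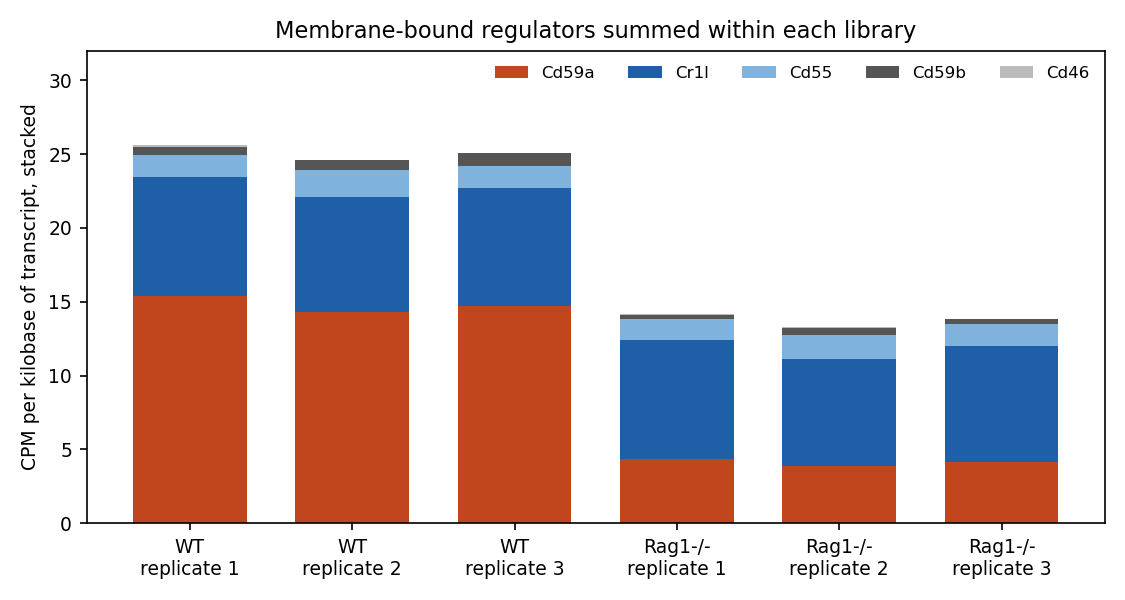
CPM per kilobase of transcript of the 5 membrane regulators, stacked within each library. The sum is 24.6 to 25.6 in WT and 13.3 to 14.2 in Rag1-/-, and the Cd59a segment accounts for most of the difference, while the Cr1l and Cd55 segments stay close in height.

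The position of Cd59a was not used to choose it. Cd59a starts 2.45 Mb after the end of Rag1 on chromosome 2, so it is linked to the targeted locus. Of 22 genes of the table between the end of Rag1 and the start of Cd59a, 21 were tested, none passed (limma-trend, adjusted p under 0.05), 5 had an unadjusted p under 0.05, and the median log2 fold change was -0.02. In 6 of the 21 every Rag1-/- library was below every WT library, and in 3 every one was above. Over all tested genes these shares were 14.4% and 3.98%, and 11.6% had an unadjusted p under 0.05. The lowest, named after its value was seen, was Cd44, a hyaluronan receptor, at 4.44, 4.95 and 6.38 CPM in WT and 3.21, 2.82 and 3.02 CPM in Rag1-/-, with a log2 fold change of -0.77 (adjusted p = 0.216 by limma-trend).

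None of the 5 tested genes on either side of Cd59a passed the test. In 4 of these 10, Caprin1, Fbxo3, Cd59b and Hipk3, every Rag1-/- library was below every WT library (14.4% of all tested genes), and in 1, Lmo2, every one was above (3.98%). Before Cd59a, in order, Nat10, Caprin1, Lmo2, Fbxo3 and Cd59b had log2 fold changes of -0.06, -0.06, 0.29, -0.09 and -0.74. These 5 are also among the 21 tested genes between Rag1 and Cd59a, so the counts of both sets share genes. After Cd59a, D430041D05Rik, Hipk3, Gm13884, Platr14 and Cstf3 had log2 fold changes of -0.18, -0.14, 0.16, 0.18 and 0.00. The adjusted limma-trend p of these 10 lay between 0.334 and 0.998. Because the Rag1 allele was made in 129S7 cells, the Rag1 genotype and the strain origin of the linked Cd59a locus cannot be told apart in these groups.

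**Figure D4:**
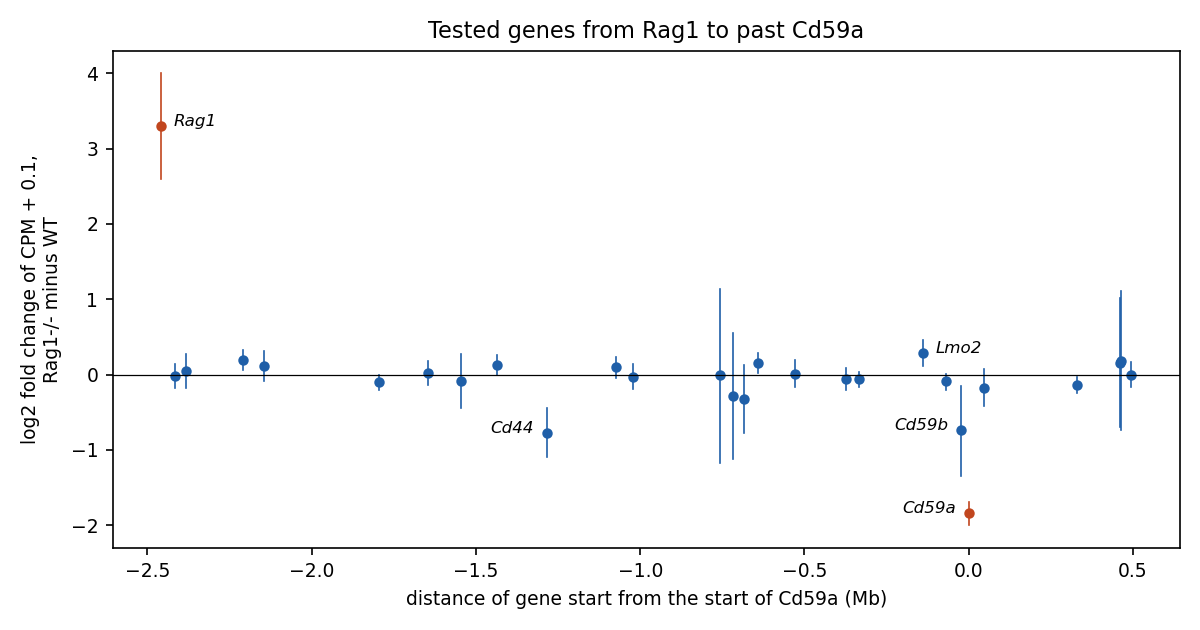
Log2 fold change of CPM + 0.1 (Rag1-/- minus WT, 95% interval from limma-trend) against the distance of each gene's start from that of Cd59a, in Mb, for Rag1, the 21 tested genes between them and the 5 tested genes after Cd59a. Rag1 lies at 3.30 and Cd59a at -1.84, while the genes between them run from -0.77 (Cd44) to 0.29 (Lmo2).

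The other complement genes were read from the same fit as lists, described beside the median of -0.051 over all tested genes. Of 21 further regulators, 14 were tested and none passed in either direction, 13 had a log2 fold change below 0 (67.7% of all tested genes), and the median was -0.13, from -0.34 to 0.05. Under the alternatives this median ran from -0.15 to -0.0617, the latter without Rag1-/- replicate 1. The most abundant were the neuronal sushi-domain genes Sez6l2, Sez6l and Sez6 and the C1q-binding Susd4. Sez6l2 was at 429, 470 and 437 CPM in WT and 388, 371 and 427 CPM in Rag1-/-, with a log2 fold change of -0.17 (adjusted p = 0.373 by limma-trend), and the groups nearly touch. Sez6l, Sez6 and Susd4 had log2 fold changes of -0.19, -0.12 and 0.05.

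Of 20 early components, 14 were tested and none passed, with a median log2 fold change of -0.08. The median ran from -0.16 with the Xist term to -0.0157 without WT replicate 3, and was -0.03 without Rag1-/- replicate 3. Of the 14, 9 had a log2 fold change below 0 (67.7% of all tested genes), and the values ran from -0.53 to 0.37. In 2, C4b and C3, every Rag1-/- library was below every WT library (14.4% of all tested genes). In 1 every one was above (3.98%). The subunits of C1q, which starts the classical pathway, were at like levels, with log2 fold changes of -0.07 for C1qa, -0.05 for C1qb and -0.12 for C1qc. C4b, whose product joins the C3 convertase of that pathway, was at 19.0, 23.6 and 25.6 CPM in WT and 13.1, 16.5 and 17.6 CPM in Rag1-/-. Every Rag1-/- library was below every WT library, and the log2 fold change was -0.53 (SE 0.13, adjusted p = 0.319 by limma-trend). C3, the convertase substrate, named after its value was seen, went from 2.38, 3.06 and 2.99 CPM in WT to 2.14, 1.81 and 2.08 CPM in Rag1-/- (log2 fold change -0.46, adjusted p = 0.354 by limma-trend).

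The terminal components form the pore that Cd59a blocks, and little of their RNA was measured. Of 7, Hc, which encodes C5, and C8g were tested, at log2 fold changes of 0.05 and -0.05. C7 was under the filter, at 0.0318 to 0.165 CPM, and the symbols C6, C8a, C8b and C9 were not found in the deposited table. Of 9 complement receptors 8 were tested, none passed, and the median log2 fold change was -0.02. The most abundant of them, C1qbp, Cd93, Itgam and Itgb2, had log2 fold changes of -0.02, 0.03, -0.08 and -0.02.

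Cd59a carries a GPI anchor, so the enzymes that make the anchor were read as well. All 28 of 29 listed genes found in the table were tested, none passed, and the median log2 fold change was -0.01, from -0.32 to 0.16. The most abundant, Pigq, Pigt, Pigs and Pigk, had log2 fold changes of 0.00, -0.04, -0.07 and -0.11. Cd59a also belongs to the Ly6/uPAR domain family, small cysteine-rich proteins that are often GPI-anchored. Of 28 listed relatives 15 were tested, none passed, and the median log2 fold change was -0.07, from -1.57 for Ly6d to 0.34 for Ly6g6d. Ly6d was at 0.0473, 0.452 and 0.316 CPM in WT and at 0.029, 0.0001 and 0.0001 CPM in Rag1-/-. WT replicate 1 and all 3 Rag1-/- libraries were under 3 reads, so Ly6d passed the filter through WT replicates 2 and 3, and both genes are named after their values were seen. Lynx1, Ly6e, Ly6h and Ly6c1, the most abundant, had log2 fold changes of 0.06, -0.10, -0.10 and 0.03.

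In 2 further lists every member separated the genotypes. All 8 interferon response genes were below their WT range in every Rag1-/- library, as 14.4% of all tested genes were, with a summed level of 70.3 to 77.9 CPM in WT and 45.8 to 49.6 CPM in Rag1-/-. Of them, Ifit3 and Oasl2 passed the test, with log2 fold changes of -0.99 and -0.84 (each with an adjusted p = 0.0443 by limma-trend). No gene of the list passed under 12 of 15 alternatives, among them both rescalings, the replicate block and leaving out WT replicate 1 or 2 or Rag1-/- replicate 1 or 3, and 1 passed without Rag1-/- replicate 2. The median log2 fold change of the list was -0.83, between -0.89 and -0.76 with 1 library left out and between -0.85 and -0.68 under the other settings. All 8 oligodendrocyte markers were above their WT range (3.98% of all tested genes), with a summed level of 19673 to 22846 CPM in WT and 25411 to 26713 CPM in Rag1-/-, and none passed the test (smallest adjusted p = 0.258), while 1 did with the Xist term. The part of either list in the Cd59a values was not tested. Endothelial, microglia and neuron markers, with medians of -0.05, -0.03 and -0.03, had no gene past the test, but with the Xist term the endothelial median was 0.19 and 1 gene passed. The choroid plexus and ependyma list had none either, with a median of -0.36, which was -0.16 without WT replicate 1, -0.55 with 1 gene past the test without WT replicate 3, and 0.06 with the Xist term. The red blood cell list also had none, with a median of 0.33, which was -0.02 without WT replicate 1, 0.74 without WT replicate 3, 0.54 and 0.17 without Rag1-/- replicates 2 and 3, and -0.34 with the Xist term.

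The genes whose levels were most like those of Cd59a over the 6 libraries, by Pearson's r of log2(CPM + 0.1), were Tmed4 (0.9961), Pisd-ps1 (0.9951), Rtca (0.9942), Sec24c (0.9941) and Jade2 (0.9938). These are descriptions across 6 points that fall into 2 genotypes, so any transcript with a clean genotype difference scores high. Among them Pisd-ps1, a pseudogene that can share reads with other copies, and Rtca, an RNA cyclase gene, had log2 fold changes of -1.30 and -0.57, while Tmed4, Sec24c and Jade2 had -0.14, -0.10 and -0.31. The other regulators had r to Cd59a of 0.81 for Cd59b, 0.59 for Serping1, 0.57 for Clu, 0.41 for Cd55, 0.37 for Cr1l and 0.12 for Cd46.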

How the data were processed

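Total RNA of 6 brainstem samples was sequenced on an Illumina HiSeq. The authors aligned the reads to mm10 RefSeq transcripts with STAR 2.5.3a (per the labels and methods) and deposited 1 CPM value per gene and library, with 0.0001 added. The library kit, strand and read length are not given in the sources used here. From these deposited CPM values, log2(CPM + 0.1) was tested with limma-trend (limma 3.58.1, R 4.3.3) over 16762 genes whose mean reached 0.1 CPM, with Benjamini-Hochberg adjustment over all of them, and 1296 genes were not tested. Single members other than Cd59a were also compared with an exact permutation test. P-values set a difference against the spread between 3 libraries per genotype. In limma-trend the spread of each gene is drawn toward a trend over all genes. Depth was estimated from the steps between low CPM values and covers counting error only. Transcript lengths came from GENCODE M21 and promoter windows from a table of RefSeq starts, in which 5 of the 7 members were matched. The members, gene lists, motifs and alternatives were chosen with earlier results of these data known. Named genes are the members, Rag1, Xist, the 5 tested neighbours on each side of Cd59a, the 5 genes most like it, and of each list the genes past the test and at most the 4 most abundant. Genes outside this rule (C3, Cd44, Ly6d and Ly6g6d) were named after their values were seen. Lists of cell type markers are given by counts, medians and summed levels only, except for Slc1a2, named for its position.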

Additional observations from a re-analysis of the deposited data

How the results depend on the processing

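The log2 fold change of Cd59a was between -1.88 and -1.80 when each library was left out in turn, and between -1.85 and -1.73 under 10 other settings, which were pseudocounts of 1 and 0.01, no filter, a filter at a mean of 1 CPM, median-of-ratios rescaling, quantile normalization, no trend, a replicate block, a term for high Xist and a ratio of arithmetic means. Cd59b kept its direction in the settings run (-1.08 to -0.26, adjusted p 0.195 to 0.753) and, like Cd46, was under the filter at a mean of 1 CPM. Cd46 (-0.09) ran from -0.345 without WT replicate 3 to 0.36 without WT replicate 1, was 0.0658 without Rag1-/- replicate 3, and reversed to 0.0271 with quantile normalization and 0.42 with the Xist term. Cr1l (-0.03) ran from -0.0661 without Rag1-/- replicate 1 to 0.0144 without Rag1-/- replicate 2, and reversed to 0.0088 with median-of-ratios rescaling and 0.0157 with quantile normalization. The cause was not tested. With the median transcript length the Cd46 level per kilobase was 0.112 CPM in WT and 0.0919 CPM in Rag1-/-, the same ratio as with the longest.

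The number of members past the test was 1 except 2 with the Xist term, where Serping1 is added on 1 WT library, replicate 3. The number of genes past it, 8, was 4 with a pseudocount of 0.01, without a filter and at a mean of 1 CPM, 5 with quantile normalization, 2 without the trend, 3 with the replicate block and 134 with the Xist term. It ran from 2 to 24 when 1 library was left out, with 24 without WT replicate 3, 2 without Rag1-/- replicate 1 or 3 and 5 without Rag1-/- replicate 2. Same-numbered libraries correlated at 0.0926, -0.22 and -0.0183 in their deviations from the group means, so nothing but the number ties them. Under the replicate block the Cd59a log2 fold change is -1.84 by construction, since the design is balanced, and no filter, a filter at a mean of 1 CPM and no trend cannot move it either. A count test was not run, because 85.0% to 86.6% of low values were whole reads within 0.1 read.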
